A study of Homo sapiens with 6 samples.

Results

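The nuclear genes of oxidative phosphorylation were taken as the protein-coding genes whose symbol begins with NDUFA, NDUFB, NDUFC, NDUFS, NDUFV, UQCR, COX4, COX5, COX6, COX7, COX8 or ATP5, together with SDHA, SDHB, SDHC, SDHD and CYC1. The rule used names only, and it found 100 of the 58735 genes in the expression table. By role, 37 were subunits of complex I, 8 were complex I assembly factors of the NDUFAF series, 4 were subunits of complex II, 9 of complex III, 19 of complex IV and 18 of complex V. The remaining 5 were gene copies, read-through genes or a gene placed here with none of the complexes. RNA sequencing was done on RKO, a widely used cell line from a human colorectal carcinoma, in 3 libraries of control cells (Vector 1 to 3) and 3 libraries of cells overexpressing the long noncoding RNA LOC101927668 (LOC_OE 1 to 3). LOC_OE cells were stably transduced with lentivirus carrying the full-length RNA in a plenti6 plasmid and selected with puromycin, and the control, named Vector in the study, is described in the labels only as a negative control. Whether each group was a pool or a clone, and whether the 3 libraries came from separate cultures, was not stated, so the p-values measure the spread between these libraries, which may be technical.

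Oxidative phosphorylation is the last stage of energy metabolism in mitochondria. Complexes I and II take electrons from NADH and succinate, complex III passes them to cytochrome c, and complex IV gives them to oxygen, while complexes I, III and IV pump protons across the inner membrane and complex V (ATP synthase) uses the returning protons to make ATP. Most subunits are encoded in the nucleus and imported, and the remainder, mainly the membrane cores of complexes I, III, IV and V, are encoded by mitochondrial DNA. Complex II is entirely nuclear.

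Each library held between 15008842 and 18410231 reads on genes, and expression was given as FPKM (fragments per kilobase of exon, scaled for the size of the library). LOC101927668, listed as AC005062.1 (ENSG00000243004), was read 1, 1 and 0 times in the Vector libraries and 231, 270 and 276 times in the LOC_OE libraries, which was at least 103-fold higher against a floor of 3 reads per library. Of 10 epithelial markers, 4 (KRT8, KRT18, EPCAM and CDX2) passed the filter, CDH1 and CDX1 were at 0, and no fibroblast, leukocyte or endothelial marker passed. LOC_OE 1 stood apart from the others: its correlations with LOC_OE 2 and 3 were 0.967 and 0.962, whereas those 2 correlated at 0.982. Its FPKM also summed to 360434, against 305702 and 310012 in the other LOC_OE libraries and 264150 to 280648 in Vector. The main results are therefore given with and without LOC_OE 1.

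Most members lay higher in LOC_OE 1 than in any other library, and few passed the test between the groups. Of the 100 members, 91 passed the filter (at least 0.5 FPKM in at least 3 libraries) and were tested with limma on log2(FPKM + 1), with p-values adjusted over all 16061 tested genes. Past an adjusted p of 0.05, 11 were higher and 1 was lower in LOC_OE, 13.2% of the 91 in either direction. Over all tested genes the share was 20.4%, with 10.7% higher and 9.74% lower, so the share of members called higher was near the background. With a fold change of at least 1.5 as well, 6 members were higher and 1 was lower, where the share over all tested genes was 10.2%. The groups did not overlap for 45 members that were higher and 2 (NDUFV2 and NDUFA7) that were lower, 51.6% of the 91, against 45.3% of all tested genes. The log2 fold change was above 0 in 79 of the 91 members, with a median of 0.25, and the median of all tested genes was 0.02. Over the 11303 tested protein-coding genes, 23.0% were past the adjusted p, the groups did not overlap for 51.5%, and the median was 0.05.

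The scaling of the libraries bore on these directions. When every library was scaled to the same sum of FPKM, the median of all tested genes moved to -0.18, that of the members to 0.02, and 47 of 91 members stayed above 0. The members then lay 0.20 above the median of all genes, compared with 0.23 as deposited. The called members split into 7 higher and 5 lower under that scaling, in place of 11 and 1. Rescaling each library by its median ratio to the geometric mean of each gene changed little. The medians of members and of all tested genes were then 0.25 and 0.02, with 11 members higher and 1 lower. Fold changes below are on the scale of the deposited FPKM.

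By library, the median member lay 0.65 above the Vector mean (log2) in LOC_OE 1, 0.15 above in LOC_OE 2 and 0.10 above in LOC_OE 3, while the median of all tested genes lay 0.03, 0.01 and 0.01 above. The 3 Vector libraries lay at 0.04, 0.01 and -0.06. LOC_OE 1 held the highest value of the 6 libraries for 77 of 91 members, or 84.6%, for 33.4% of all tested genes and for 40.1% of the protein-coding ones. The summed FPKM of the 100 members made up 1.07%, 1.10% and 1.04% of all FPKM in Vector and 1.34%, 1.07% and 1.05% in LOC_OE, so that only LOC_OE 1 lay outside the Vector range by this measure. Removing from each library its trend of expression with exon length or with GC content left the median log2 fold change at 0.24 and 0.25. What set LOC_OE 1 apart was not tested.

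**Figure D1:**
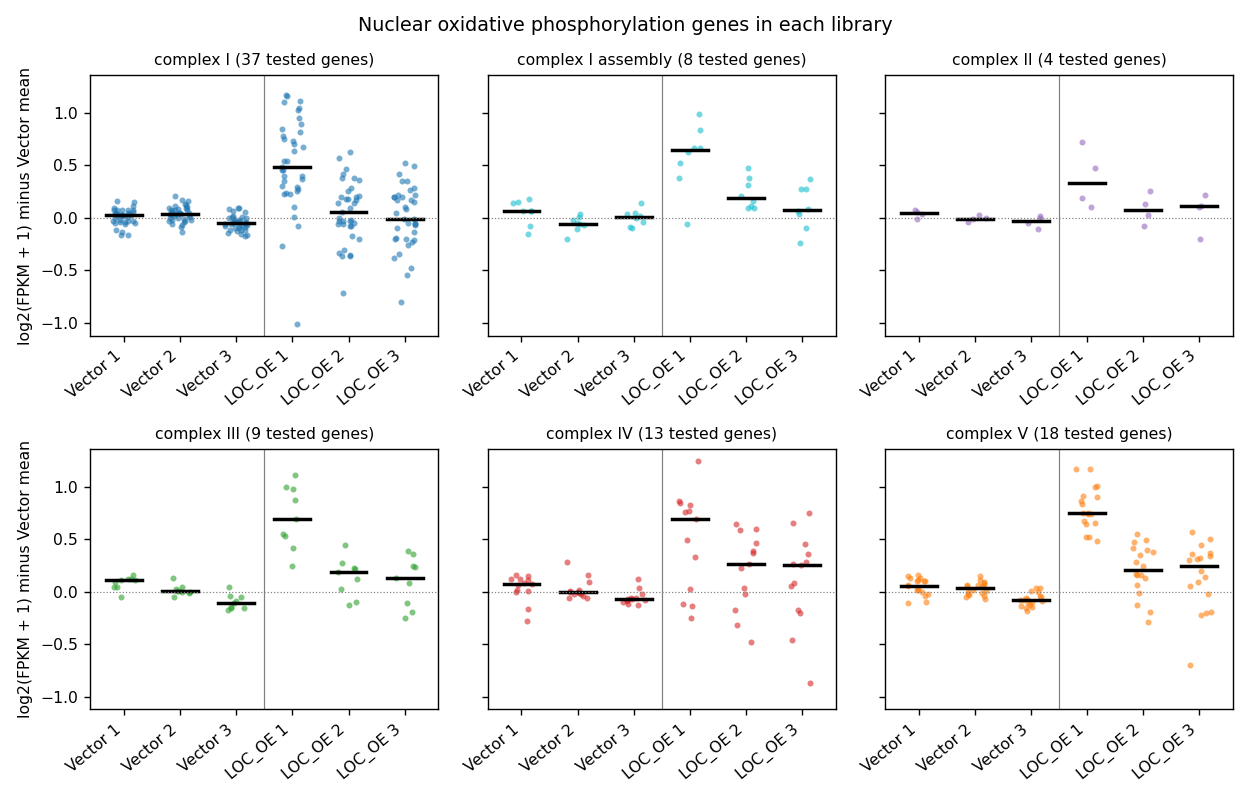
Each point is 1 tested gene, placed by its log2(FPKM + 1) in a library minus its mean over the 3 Vector libraries, with a panel for each complex and for the complex I assembly factors; the bar is the median. In every panel the highest median is that of LOC_OE 1, from 0.33 in complex II to 0.74 in complex V.

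Without LOC_OE 1 more genes passed the test. The median log2 fold change of the members was then 0.12, with 58 of 91 above 0. Of the 91 members, 29 were higher and 9 were lower, where the share of all tested genes was 35.5%, with 19.4% higher and 16.1% lower. The 9 lower members were NDUFA1, NDUFA8, NDUFB4, NDUFS6 and NDUFV2 of complex I, COX5B and COX6A1 of complex IV, and ATP5ME and ATP5IF1 of complex V. Apart from NDUFV2, none of the 9 passed the test with all 6 libraries. When a Vector library was left out instead, COX6C was the only member called higher in each of the 3 fits, and the share of all tested genes called was 2.31% to 4.51%.

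**Figure D2:**
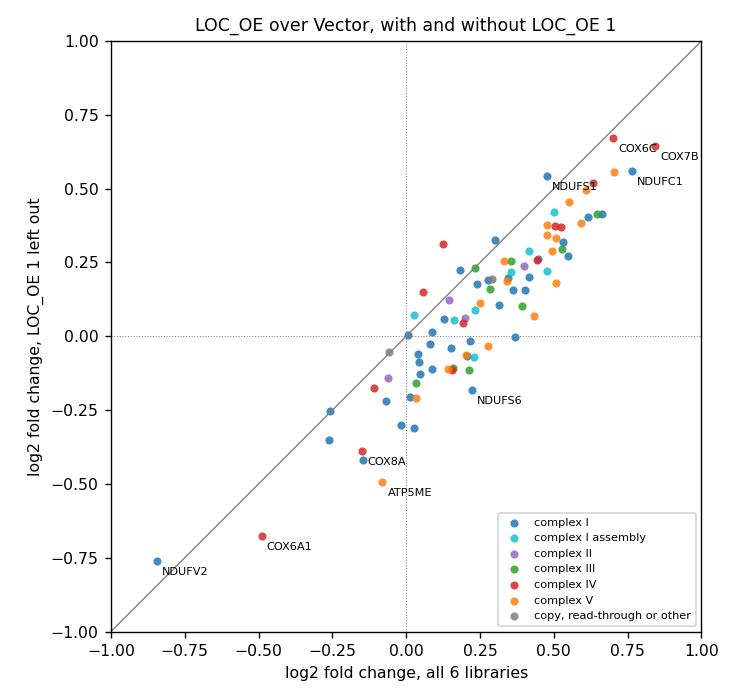
Each point is 1 tested member, with the log2 fold change of LOC_OE over Vector from all 6 libraries on the horizontal axis and from the 5 libraries without LOC_OE 1 on the vertical axis, coloured by complex; the line marks equality. Most points lie below the line, COX6C (0.70 and 0.67) and NDUFV2 (-0.84 and -0.76) lie close to it, and NDUFS6 moves from 0.22 to -0.18.

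Complex I (NADH dehydrogenase) was the largest group and moved in both directions. Of its 37 tested subunits, 2 were higher, 1 was lower and 34 did not pass, with a median log2 fold change of 0.21. The 8.11% past the threshold compare with 20.4% of all tested genes. NDUFV2, a core subunit that carries an iron-sulfur cluster in the NADH-oxidising arm, had 3.46, 4.25 and 4.28 FPKM in Vector 1, 2 and 3 and 1.47, 2.02 and 1.86 FPKM in LOC_OE 1, 2 and 3. All 3 LOC_OE values lay below the lowest Vector value, and LOC_OE 1 was the lowest of all. The fitted log2 fold change was -0.84 (SE 0.12, limma adjusted p = 0.00897), and it was -0.76 without LOC_OE 1 (adjusted p = 0.00399). NDUFV2 (ENSG00000178127, chromosome 18 from 9102630 to 9134345, coordinates of GRCh38 here and below) was the member lowest relative to Vector. With each library left out in turn it passed in 4 of 6 fits, and its adjusted p (limma) was at most 0.0583. It was supported by 64 to 216 reads per library, and reads could be shared with its processed copy NDUFV2P1 on chromosome 19, which was counted at 24, 18 and 19 in Vector 1 to 3 and at 37, 20 and 20 in LOC_OE 1 to 3. Of the exon bases of NDUFV2, 28.4% are also shared with AP005263.1 on the same strand, which had a mean of 0 FPKM. Whether this overlap lowered the count of NDUFV2 was not tested.

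NDUFS1, the largest core subunit and another iron-sulfur protein of the same arm, moved the other way. NDUFS1 (ENSG00000023228, chromosome 2 from 206114817 to 206159603) had 10.1, 9.17 and 10.2 FPKM in Vector and 12.8, 15.01 and 14.5 FPKM in LOC_OE. Each LOC_OE library lay above every Vector library, and LOC_OE 1 was here the lowest of the 3. The difference was 0.48 on the log2 scale (SE 0.09, limma adjusted p = 0.0187), but it was 0.24 (adjusted p = 0.222) at the same sum of FPKM. NDUFC1, a small accessory subunit of the membrane arm (ENSG00000109390, chromosome 4 from 139266880 to 139302551), had 14.7, 16.01 and 14.4 FPKM in Vector 1, 2 and 3 and 35.1, 23.8 and 21.6 FPKM in LOC_OE 1, 2 and 3. The groups did not overlap, with LOC_OE 1 highest. Its log2 fold change was 0.76 (SE 0.18, limma adjusted p = 0.0310), and it was 0.56 without LOC_OE 1 (adjusted p = 0.00316).

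The most abundant complex I messages did not pass the test. NDUFS5, an accessory subunit, had 219.7, 212 and 189 FPKM in Vector and 384, 228 and 232 FPKM in LOC_OE. LOC_OE 2 and 3 lay just above the Vector range and LOC_OE 1 far above it. The log2 fold change was 0.40 (SE 0.21, limma adjusted p = 0.227), and without LOC_OE 1 it was 0.16 (adjusted p = 0.166). NDUFB7 had 78.2, 90.8 and 74.5 FPKM in Vector 1, 2 and 3 and 132, 76.7 and 54.99 FPKM in LOC_OE 1, 2 and 3, and NDUFA8 had 74.95, 75.4 and 70.8 FPKM in Vector and 101, 63.8 and 63.5 FPKM in LOC_OE. In both genes LOC_OE 1 was the highest of the 6 libraries and LOC_OE 3 the lowest. Their log2 fold changes were 0.03 (SE 0.30) and 0.01 (SE 0.19), with limma adjusted p-values of 0.958 and 0.968, and without LOC_OE 1 that of NDUFA8 was -0.21 (adjusted p = 0.0217). The other 31 subunits ranged from -0.26 in NDUFA2 to 0.66 in NDUFAB1, none past the threshold. The 7 nuclear core subunits had a median of 0.04 and the 30 accessory subunits one of 0.22. Without LOC_OE 1 the median over complex I was 0.00, with 8 subunits higher and 5 lower, where 35.5% of all tested genes were called.

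The NDUFAF assembly factors help build complex I and are not part of the finished enzyme. All 8 were tested, 1 was higher and 7 did not pass, and the median log2 fold change was 0.29, or 0.15 without LOC_OE 1. The 12.5% that passed compare with 20.4% of all tested genes. NDUFAF3, named here after its values were seen as the member that passed, had 12.3, 10.4 and 10.3 FPKM in Vector 1, 2 and 3 and 18.01, 15.6 and 14.4 FPKM in LOC_OE 1, 2 and 3. The groups did not overlap, and its log2 fold change was 0.50 (SE 0.11, limma adjusted p = 0.0279), but at the same sum of FPKM it was 0.26 (adjusted p = 0.0571). Of its exon bases, 21.7% are shared with DALRD3 on the opposite strand. The other 7 ranged from 0.03 in NDUFAF7 to 0.48 in NDUFAF4.

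Complex II (succinate dehydrogenase) links the citric acid cycle to the respiratory chain, and none of its 4 genes passed the test, with a median log2 fold change of 0.17, or 0.09 without LOC_OE 1. SDHA, the flavoprotein that oxidises succinate, had 19.5, 18.7 and 17.98 FPKM in Vector and 20.1, 17.6 and 16.2 FPKM in LOC_OE. Its groups overlapped, and its log2 fold change was -0.06 (SE 0.10, limma adjusted p = 0.698), whereas at the same sum of FPKM it was -0.31 (adjusted p = 0.0210). Its copies SDHAP1 and SDHAP3 had up to 275 and 114 reads in a library, so that SDHA reads could be split among them. SDHB, the iron-sulfur subunit, had 29.3, 28.3 and 25.8 FPKM in Vector 1, 2 and 3 and 46.4, 33.3 and 32.5 FPKM in LOC_OE 1, 2 and 3, and its LOC_OE values all lay above its Vector values. The fitted log2 fold change was 0.40 (SE 0.15, limma adjusted p = 0.107), and without LOC_OE 1 it was 0.24 (adjusted p = 0.0353). SDHC and SDHD anchor the enzyme in the membrane. SDHC had 7.80, 7.32 and 7.57 FPKM in Vector and 8.78, 8.37 and 8.27 FPKM in LOC_OE, and SDHD had 11.8, 11.8 and 12.1 FPKM in Vector 1, 2 and 3 and 16.8, 12.1 and 12.8 FPKM in LOC_OE 1, 2 and 3. The groups did not overlap in either gene, although SDHD in LOC_OE 2 lay only just above Vector 3. The log2 fold changes were 0.15 (SE 0.07) and 0.20 (SE 0.13), with limma adjusted p-values of 0.200 and 0.309.

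Complex III (cytochrome bc1) had no member past the test. All 9 subunits were tested, all had a log2 fold change above 0, and the median was 0.28, or 0.16 without LOC_OE 1, although at the same sum of FPKM 5 of 9 stayed above 0. UQCRH, the hinge protein that contacts cytochrome c1, had 134, 130.0 and 126 FPKM in Vector 1, 2 and 3 and 188, 148 and 142 FPKM in LOC_OE 1, 2 and 3. UQCRC1, a core protein, had 81.9, 77.5 and 72.2 FPKM in Vector and 103, 70.7 and 67.3 FPKM in LOC_OE, and UQCRQ, a small subunit, had 57.9, 53.9 and 47.8 FPKM in Vector 1, 2 and 3 and 115, 72.4 and 69.5 FPKM in LOC_OE 1, 2 and 3. In UQCRH and UQCRQ the LOC_OE values all exceeded the Vector values, whereas in UQCRC1 only LOC_OE 1 did. The log2 fold change of UQCRQ was 0.64 (SE 0.20, limma adjusted p = 0.0706), and without LOC_OE 1 it was 0.41 (adjusted p = 0.0150). That of UQCRH was 0.28 (adjusted p = 0.156) and that of UQCRC1 0.03 (adjusted p = 0.911). The catalytic subunits CYC1 (cytochrome c1) and UQCRFS1 (the Rieske iron-sulfur protein) had log2 fold changes of 0.39 (SE 0.25) and 0.16 (SE 0.22), and of 0.10 and -0.11 without LOC_OE 1.

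Complex IV (cytochrome c oxidase) had 4 of 13 tested members higher and none lower, 30.8%, against 20.4% of all tested genes. Its subunits spread from -0.49 to 0.84. COX6C, a subunit found in all tissues (ENSG00000164919, chromosome 8 from 99873200 to 99894062), had 30.8, 32.9 and 29.1 FPKM in Vector 1, 2 and 3 and 53.05, 47.2 and 52.5 FPKM in LOC_OE 1, 2 and 3. Each LOC_OE library lay well above each Vector library, and LOC_OE 1 was close to LOC_OE 3. The means were 30.9 ± 1.90 FPKM in Vector and 50.9 ± 3.24 FPKM in LOC_OE (SD, n = 3 each). The difference was 0.70 on the log2 scale (SE 0.09, limma adjusted p = 0.00767), and it was past the threshold with each of the 6 libraries left out in turn and in all 13 other alternatives that kept the 6 libraries. COX7A2, the form of subunit 7a made in most tissues (ENSG00000112695, chromosome 6 from 75237675 to 75250323), had 36.9, 34.4 and 33.03 FPKM in Vector and 63.8, 52.7 and 48.02 FPKM in LOC_OE. Its groups did not overlap, and its log2 fold change was 0.63 (SE 0.12, limma adjusted p = 0.0185). COX7B and COX4I1 were named after their values were seen, since both passed. COX7B, which had the highest log2 fold change of the members, had 15.4, 13.2 and 12.99 FPKM in Vector 1, 2 and 3 and 34.04, 22.1 and 22.2 FPKM in LOC_OE 1, 2 and 3, and its log2 fold change was 0.84 (SE 0.18, limma adjusted p = 0.0242). COX4I1, a regulatory subunit, had 59.5, 54.6 and 51.1 FPKM in Vector and 94.1, 76.2 and 67.2 FPKM in LOC_OE, and its log2 fold change was 0.50 (SE 0.14, limma adjusted p = 0.0482), but at the same sum of FPKM it was 0.25 (adjusted p = 0.0809). For both, LOC_OE 1 was highest and the groups did not overlap. Without LOC_OE 1 the log2 fold changes of COX7A2, COX7B and COX4I1 were 0.52, 0.64 and 0.37, each past the threshold.

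The 3 most abundant messages of complex IV did not pass. COX8A had 122, 166 and 126 FPKM in Vector 1, 2 and 3 and 172, 109.8 and 99.1 FPKM in LOC_OE 1, 2 and 3, COX6B1 had 94.1, 82.8 and 77.3 FPKM in Vector and 137, 83.2 and 73.2 FPKM in LOC_OE, and COX7C had 85.3, 76.98 and 73.6 FPKM in Vector 1, 2 and 3 and 111, 80.4 and 81.4 FPKM in LOC_OE 1, 2 and 3. The groups overlapped in each, with LOC_OE 1 the highest library of all 3 genes. Their log2 fold changes were -0.15 (SE 0.23), 0.16 (SE 0.24) and 0.19 (SE 0.15). COX6A1, picked after its values were seen for its negative value, had 25.1, 34.4 and 33.5 FPKM in Vector and 28.3, 21.7 and 16.3 FPKM in LOC_OE. LOC_OE 1 lay within the Vector range and LOC_OE 2 and 3 below it. Its log2 fold change was -0.49 (SE 0.22, limma adjusted p = 0.155), and without LOC_OE 1 it was -0.68 (adjusted p = 0.0303). The processed copy COX6A1P2 on chromosome 6 was counted at 80, 69 and 58 in Vector 1 to 3 and at 106, 58 and 55 in LOC_OE 1 to 3, so that the reads of COX6A1 are uncertain to that extent.

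Of the forms of complex IV subunits listed here as tissue-restricted, 6 of 7 did not pass the filter. COX6A2 and COX7B2 had 0 reads in all 6 libraries, and COX4I2 had 2 reads in Vector 2 and 0 elsewhere. Their common partners COX6A1, COX7B and COX4I1 had 16.3 to 34.4, 12.99 to 34.04 and 51.1 to 94.1 FPKM. COX7A1, the heart and muscle form of subunit 7a, had 1 to 8 reads per library, where its common partner COX7A2 had 33.0 to 63.8 FPKM. COX8C, known from testis, held 1, 7 and 2 reads in the Vector libraries but 0 in LOC_OE, where its partner COX8A had 99.1 to 172 FPKM. COX6B2, another testis form, held 34, 33 and 34 reads in the Vector libraries but 4, 8 and 12 in the LOC_OE libraries, so the groups did not overlap, but it stood at 0.0655 to 0.479 FPKM, against 73.2 to 137 for COX6B1, and was not tested. NDUFA4L2 passed the filter with 0.741, 0.672 and 0.766 FPKM in Vector 1, 2 and 3 and 0.445, 1.22 and 1.07 FPKM in LOC_OE 1, 2 and 3, and its log2 fold change was 0.12 (SE 0.18, limma adjusted p = 0.661). Its common partner NDUFA4, once assigned to complex I and now placed in complex IV, had 24.1, 23.02 and 21.7 FPKM in Vector and 41.2, 27.6 and 27.5 FPKM in LOC_OE, and its log2 fold change was 0.44 (SE 0.17, limma adjusted p = 0.105).

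Complex V (ATP synthase) held the highest median log2 fold change of the 5 complexes, at 0.45. Of its 18 members, 4 were higher and none was lower, 22.2%, near the 20.4% of all tested genes. Without LOC_OE 1 the complex V median of 0.22 lay below the 0.26 of complex IV. It lay above the 0.20 of the 12 common complex IV forms in that fit. All 18 complex V members were highest in LOC_OE 1. ATP5F1B, the catalytic beta subunit of the F1 head and the most abundant member (ENSG00000110955, chromosome 12 from 56638175 to 56646068), had 374, 337 and 333 FPKM in Vector 1, 2 and 3 and 694, 508 and 514 FPKM in LOC_OE 1, 2 and 3. LOC_OE 2 and 3 lay close together above the Vector range and LOC_OE 1 higher still, with means of 348 ± 22.5 and 572 ± 105 FPKM (SD, n = 3 each). The fitted log2 fold change was 0.70 (SE 0.15, limma adjusted p = 0.0239), and without LOC_OE 1 it was 0.56 (adjusted p = 0.00362). ATP5F1C, the gamma subunit that forms the turning shaft (ENSG00000165629, chromosome 10 from 7788129 to 7807815), had 51.6, 50.4 and 50.9 FPKM in Vector and 86.04, 70.96 and 69.5 FPKM in LOC_OE. The groups did not overlap, and its log2 fold change was 0.55 (SE 0.10, limma adjusted p = 0.0177). ATP5F1A, the alpha subunit that alternates with beta in the head, had a log2 fold change of 0.48 (SE 0.14, adjusted p = 0.0566), just outside the threshold, and was named after its values were seen.

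The ring of c subunits turns as protons pass, and the same mature c protein is made from 3 genes. ATP5MC2, the most abundant of the 3 (ENSG00000135390, chromosome 12 from 53632726 to 53677408), had 52.4, 46.98 and 42.3 FPKM in Vector 1, 2 and 3 and 84.7, 66.5 and 66.8 FPKM in LOC_OE 1, 2 and 3, and its log2 fold change was 0.61 (SE 0.13, limma adjusted p = 0.0258). ATP5MC1 had 15.7, 14.99 and 12.9 FPKM in Vector and 33.7, 16.4 and 16.7 FPKM in LOC_OE. ATP5MC3 had 16.03, 16.6 and 15.0 FPKM in Vector 1, 2 and 3 and 36.8, 17.8 and 15.6 FPKM in LOC_OE 1, 2 and 3. In ATP5MC2 each LOC_OE library was above each Vector library, whereas in ATP5MC3 LOC_OE 3 lay within the Vector range. Their log2 fold changes were 0.51 (SE 0.27, adjusted p = 0.230) for ATP5MC1 and 0.43 (SE 0.30, adjusted p = 0.341) for ATP5MC3, and without LOC_OE 1 they were 0.18 and 0.07, compared with 0.49 for ATP5MC2. Whether the 3 genes differed in response was not tested.

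ATP5PB, a subunit of the peripheral stalk named after its values were seen, had 36.96, 36.2 and 37.8 FPKM in Vector and 59.5, 49.7 and 47.1 FPKM in LOC_OE, and its log2 fold change was 0.48 (SE 0.11, limma adjusted p = 0.0268), but at the same sum of FPKM it was 0.22 (adjusted p = 0.0603). The 4 stalk genes had a median of 0.41, or 0.32 without LOC_OE 1 and 0.16 at the same sum of FPKM. Their groups did not overlap in any of the 4, as was so for 45.3% of all tested genes and 51.5% of the protein-coding ones. ATP5MD, a small membrane subunit and the second most abundant of complex V, had 58.1, 54.6 and 50.4 FPKM in Vector 1, 2 and 3 and 103, 66.1 and 66.9 FPKM in LOC_OE 1, 2 and 3, with 0.49 as its log2 fold change (SE 0.18, adjusted p = 0.104). ATP5IF1, the inhibitor that stops the enzyme from hydrolysing ATP, had 18.5, 20.8 and 20.4 FPKM in Vector and 28.998, 17.2 and 16.9 FPKM in LOC_OE. LOC_OE 1 lay above the Vector range and LOC_OE 2 and 3 below it. The difference was 0.03 on the log2 scale (SE 0.21, limma adjusted p = 0.921), and without LOC_OE 1 it was -0.21 (adjusted p = 0.0478). The 5 genes of the membrane part had a median of 0.28. ATP5ME, the lowest of them at -0.08 (SE 0.35), shares 61.6% of its exon bases with MYL5 on the opposite strand.

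**Figure D3:**
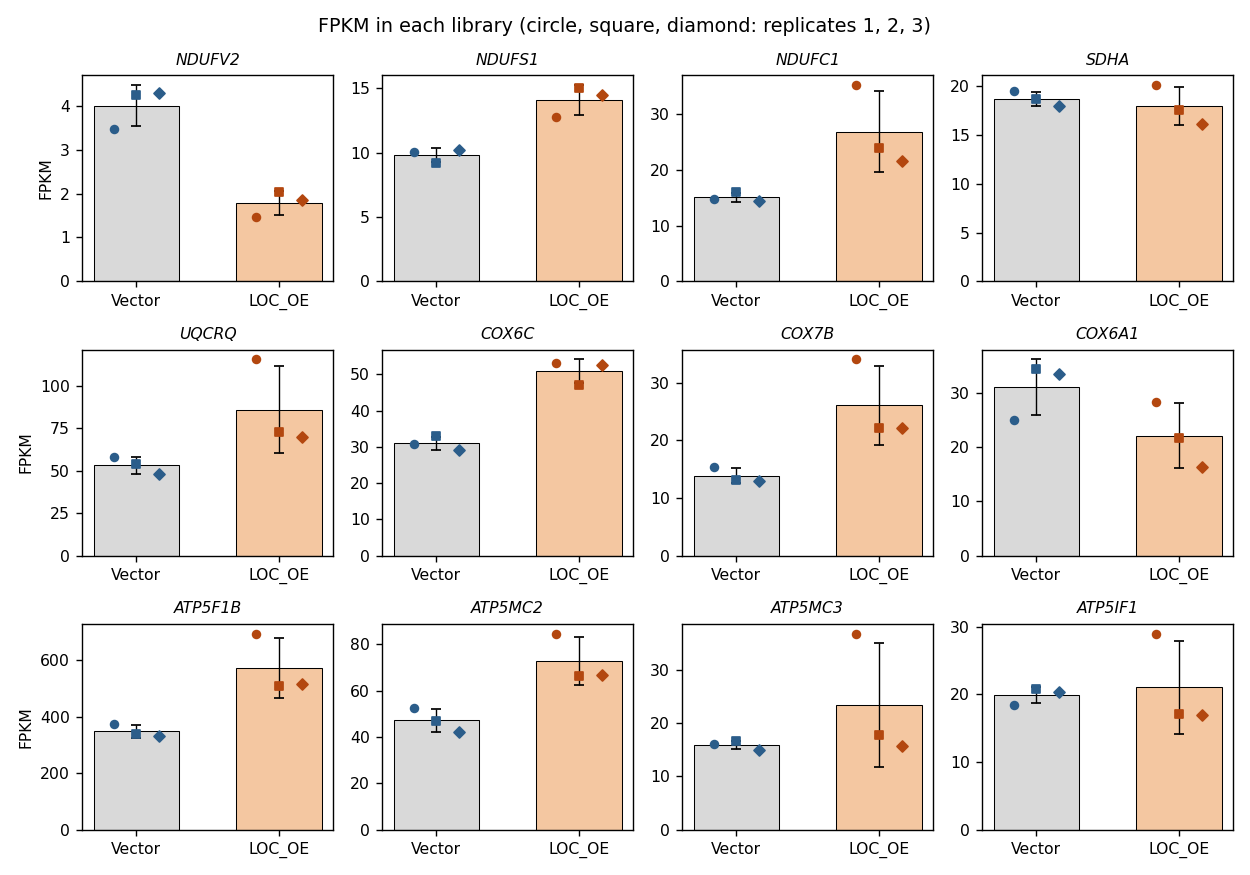
Bars give the mean FPKM of 12 members over the 3 Vector and the 3 LOC_OE libraries, whiskers give 1 SD, and symbols give the single libraries. NDUFV2 is lower in every LOC_OE library, COX6C is higher in every one (47.2 to 53.0 FPKM against 29.1 to 32.9), and in ATP5MC3 and ATP5IF1 LOC_OE 1 lies far above the other 5 libraries.

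**Figure D4:**
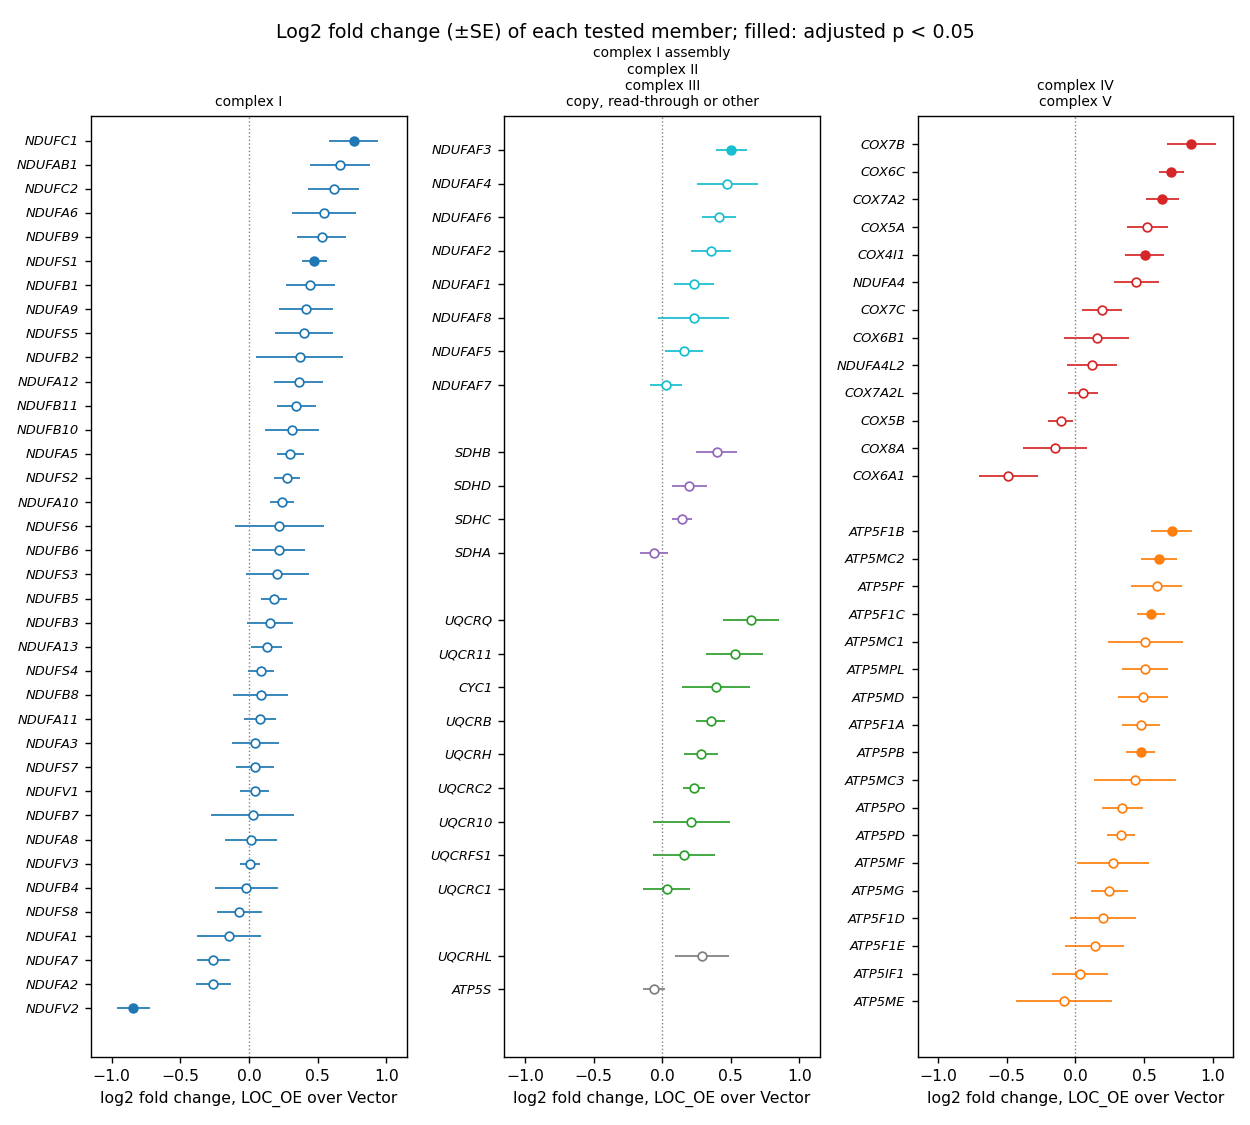
The log2 fold change of LOC_OE over Vector is given for each of the 91 tested members, ordered within its complex, with whiskers of 1 SE and filled symbols for an adjusted p under 0.05. The 11 filled symbols to the right of 0 lie between 0.48 and 0.84, and the only one to the left is NDUFV2 at -0.84.

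The levels of members within a complex differed widely, although the FPKM of a gene depends on the summed exon length used for it, which ran from 507 to 14160 bases among the members. Mean FPKM over the 6 libraries ran from 0.50 (NDUFA7) to 244 (NDUFS5) in complex I, from 8.02 (SDHC) to 32.6 (SDHB) in complex II, from 10.2 (UQCR11) to 145 (UQCRH) in complex III, from 0.819 (NDUFA4L2) to 133 (COX8A) in complex IV and from 7.59 (ATP5ME) to 460 (ATP5F1B) in complex V. NDUFA7, at 15 to 18 reads in Vector and 6 to 10 in LOC_OE, was the least abundant tested member. It had a log2 fold change of -0.26 (SE 0.12, adjusted p = 0.183), and its groups did not overlap. Of the exon bases of NDUFA7, 32.3% are shared with AC010323.1 on the same strand and 6.30% with RPS28 on the opposite strand, so its level is uncertain. Of the 5 copies and others, UQCRHL, an intronless copy of UQCRH, had 3.74, 2.94 and 3.23 FPKM in Vector and 5.01, 2.89 and 5.18 FPKM in LOC_OE, and ATP5S, placed here with none of the complexes, had 2.01 to 2.27 FPKM in the 6 libraries. Neither passed the test. ATP5MGL, ATP5MF-PTCD1 and NDUFC2-KCTD14 had at most 3 reads in any library.

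The respiratory chain subunits encoded by mitochondrial DNA had a raised median in all 3 LOC_OE libraries, and not in LOC_OE 1 alone. All 13 were tested, 6 were higher and none was lower, so that 46.2% passed, against 20.4% of all tested genes. Their log2 fold changes ran from -0.07 to 1.60 with a median of 0.38. Their medians over the Vector mean were 0.53, 0.36 and 0.45 in LOC_OE 1, 2 and 3, and without LOC_OE 1 the median log2 fold change was 0.41. MT-ND1, a complex I membrane subunit, had 803, 704 and 740.1 FPKM in Vector and 2433, 2148 and 2233 FPKM in LOC_OE, a log2 fold change of 1.60 (SE 0.12, limma adjusted p = 0.00290). The log2 fold changes of MT-ATP8, MT-ND2, MT-CO3 and MT-CO2, which also passed with a fold change of at least 1.5, were 1.39, 1.02, 0.78 and 0.72. Their groups did not overlap, as was so for 76.9% of the 13 and for 45.3% of all tested genes. At the same sum of FPKM the median of the 13 was 0.11, with 10 above 0. MT-ATP8 overlaps MT-ATP6, so that reads of the pair cannot be fully told apart.

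Other assembly factors of the complexes and the mobile electron carriers are named otherwise and lie outside the naming rule. Of 46 genes, 45 were tested, 8 were higher and none was lower, with a median log2 fold change of 0.24, or 0.15 without LOC_OE 1 and 0.026 at the same sum of FPKM. The 17.8% that passed compare with 20.4% of all tested genes. COA4, a complex IV assembly protein, had 25.2, 24.9 and 23.5 FPKM in Vector and 50.9, 36.6 and 33.6 FPKM in LOC_OE. LRPPRC, which stabilises mitochondrial messenger RNA, had 20.5, 22.6 and 24.0 FPKM in Vector and 31.9, 39.9 and 36.9 FPKM in LOC_OE. TMEM70, needed to build ATP synthase, had 19.6, 17.3 and 20.2 FPKM in Vector and 38.3, 28.8 and 26.5 FPKM in LOC_OE. In each the groups did not overlap, LOC_OE 1 was the lowest LOC_OE library for LRPPRC and the highest for the other genes, and the log2 fold changes were 0.68, 0.67 and 0.67.

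**Figure D5:**
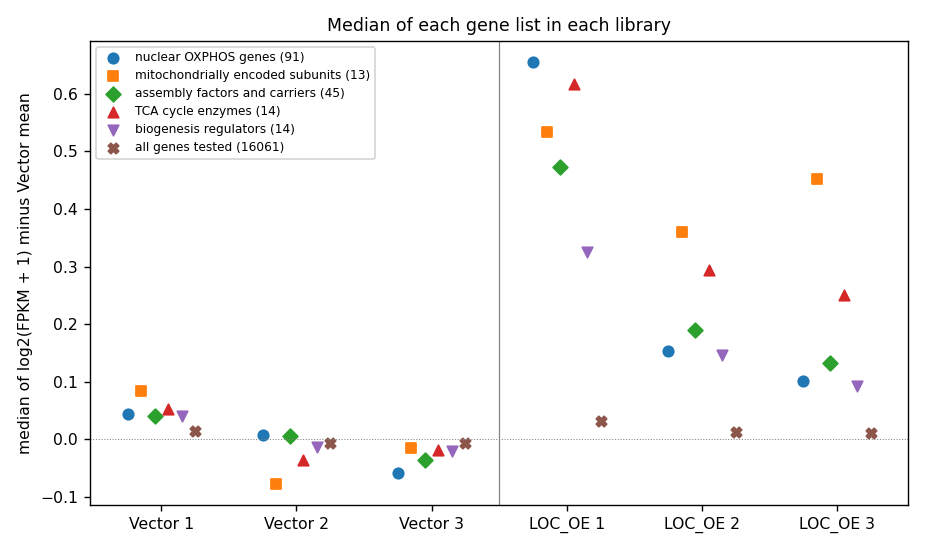
Each symbol is the median, over the tested genes of a list, of log2(FPKM + 1) in a library minus the mean of the 3 Vector libraries, with the number of tested genes in the legend. The nuclear genes lie at 0.65, 0.15 and 0.10 in LOC_OE 1, 2 and 3, the mitochondrially encoded subunits at 0.53, 0.36 and 0.45, and all tested genes within 0.03 of 0 in LOC_OE.

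The promoters of these genes are known for binding sites of NRF1 and of ETS factors such as GABP, and of YY1, and the deposited values can be set beside these motifs. RefSeq promoters (from 250 bases before to 50 after the gene start, GRCh38.p14) were found for 79 of the 100 members. The NRF1 motif (GCGCA, any base, then GCGC), on either strand, was in the promoters of 18 of the 79 members, 22.8%, and in 9.66% of 15842 protein-coding genes. The ETS motif (CCGGAAGT) was in 12 members, 15.2%, against 6.97%, and the YY1 motif (AAGATGG followed by CGGC) in 5 members, 6.33%, against 1.58%. Windows of 30 bases are shown for 2 members that rose, for SDHA, which held 4 NRF1 matches, and for a gene holding a YY1 match, each read 5′ to 3′ on the gene's strand with the motif, or its reverse complement, in capitals.
ATP5F1C, NRF1 motif, chr10:7788145-7788174, plus strand: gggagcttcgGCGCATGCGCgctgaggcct
NDUFS1, ETS motif, chr2:206159584-206159613, minus strand: aggctggggccACTTCCGGcggaactgcgg
SDHA, NRF1 motif, chr5:218144-218173, plus strand: ggtccgctttGCGCAGGCGCggcgccccca
SDHA, NRF1 motif, chr5:218193-218222, plus strand: gtggcatggtGCGCAGGCGCgatgtccccc
SDHA, NRF1 motif, chr5:218242-218271, plus strand: ccggcgtggtGCGCAGGCGCggtatccccc
SDHA, NRF1 motif, chr5:218291-218320, plus strand: ccggtgtggtGCGCAGGCGCagtctgcgca
SDHB, YY1 motif, chr1:17054002-17054031, minus strand: tcaggagccAAGATGGCGGCggtggtcgcc

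ATP5F1C and NDUFS1 were the only ones of the 12 members past the threshold in which a match to any of these motifs was found. ATP5MC2, ATP5PB, COX4I1, COX7A2, COX7B, NDUFAF3, NDUFC1 and NDUFV2 were also past it, and their promoters held no match. For COX6C and ATP5F1B no promoter was found. SDHA had a log2 fold change of -0.06 (SE 0.10). The median log2 fold change was 0.16 in the 17 tested members with an NRF1 match and 0.23 in those without. For ETS the medians were 0.40 in 12 members with a match and 0.21 in those without, and for YY1 they were 0.23 and 0.22. A match is a description of the letters and not a binding site.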

How the data were processed

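RNA sequencing of 6 libraries of RKO cells (3 Vector, 3 LOC_OE) was used. The authors deposited 1 table of FPKM values per gene. The submitters' processing notes name HISAT2 2.0.4, StringTie 1.3.0 and hg38; the annotation, the counting and the use of strand were not given in the sources used here. Every FPKM came out as a whole number of reads (100% of values, within 0.01) with the summed exon lengths of GENCODE 29, which matched all 58735 gene identifiers and supplied gene names. The reads recovered per library ranged from 15008842 to 18410231; the deposited FPKM had been divided by other totals, from 14692797 to 18763335. There were 0 unused columns of values.

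Groups followed the labels. Genes with at least 0.5 FPKM in at least 3 libraries were tested with limma 3.58.1 (R 4.3.3, moderated test with variance trend) on log2(FPKM + 1), with Benjamini-Hochberg adjustment over all tested genes and a threshold of 0.05. The pseudocount makes fold changes of low genes too small. Fits were tested on simulated data in which all libraries shared the same mean for each gene, apart from set changes between the groups. No simulated library stood apart as LOC_OE 1 did, so the simulation cannot speak to that library or to the scaling. Means are given with SD, log2 fold changes with SE. The alternatives changed the pseudocount, filter, scaling, variance model, replicate block, libraries, or trends with length, GC content and chromosome part, and limma voom was run on the recovered reads.

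The members, gene lists and motifs were chosen with earlier results of these data known. Values per library are given, in each complex, for the 3 subunits with the highest mean FPKM and the 2 smallest adjusted p-values in each direction among those past the threshold, for tissue-restricted isoforms and their partners, for the c subunit and succinate dehydrogenase genes and ATP5IF1, and for listed genes past the threshold with a fold change of at least 1.5. Other genes named were chosen after their values were seen. Lists of mitochondrially encoded subunits, assembly factors and carriers, biogenesis regulators, tricarboxylic acid cycle enzymes and cell type markers are described by counts.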

Additional observations from a re-analysis of the deposited data

How the results depend on the processing

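The median log2 fold change of the members stayed above 0, from 0.02 (same sum of FPKM) to 0.34, except at -0.043 when the same sum of FPKM and the removal of LOC_OE 1 were combined, an alternative chosen after seeing the data, as was the removal of the GC trend. The count of members called higher (11) was 5 with no filter, 7 at the same sum of FPKM, 40 with array weights, 20 with voom, 17 with the length trend removed and 33 at an unadjusted p, settings in which 7.33%, 24.0%, 50.3%, 23.3%, 22.05% and 36.5% of all tested genes were called in either direction. It ranged from 1 to 29 when a library was left out: 1 without Vector 1, Vector 2 or Vector 3, where 4.51%, 2.31% and 2.97% of all tested genes were called, 4 without LOC_OE 2 and 29 without LOC_OE 1. The count called lower (1) was 2 with no filter, 5 at the same sum of FPKM, 23 when LOC_OE 1 was also left out, 3 with quantile normalization, 9 with array weights and 0 to 9 when a library was left out. Of all tested genes, 38.3% were called in either direction at the same sum without LOC_OE 1, and 21.7% with quantile normalization. With 1 library left out, that share was 2.31% to 35.5%. At the same sum without LOC_OE 1, the median of all tested genes was -0.13 and that of the members -0.043. The count with a fold change of at least 1.5 (7) was 3 with no filter, 3 at the same sum, 4 when LOC_OE 1 was also left out, 4 with array weights, 11 with voom, 4 with chromosome parts centred, 11 at an unadjusted p and 1 to 9 when a library was left out. The share of all tested genes past that fold change was counted only in the main fit, where it was 10.2%. NDUFV2 was past the threshold in 4 of the 6 fits without a library and COX6C in 6 of 6. For most of these changes the cause was not tested.

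The number of members above 0 (79) was 58 without LOC_OE 1, 60 with array weights, 47 at the same sum of FPKM and 41 when LOC_OE 1 was also left out. Among those that turned below 0, the members past the threshold in that fit were, without LOC_OE 1, NDUFA8 (range without 1 library -0.21 to 0.12), NDUFS6 (-0.18 to 0.43) and ATP5IF1 (-0.21 to 0.16), and with array weights NDUFA8 (-0.20). At the same sum of FPKM with LOC_OE 1 left out they were ATP5F1E (-0.28), ATP5IF1 (-0.39), COX6B1 (-0.30), NDUFA3 (-0.30), NDUFA8 (-0.39), NDUFB3 (-0.22), NDUFB6 (-0.19), NDUFB7 (-0.50), NDUFS3 (-0.24), NDUFS6 (-0.36), NDUFV1 (-0.24), UQCRC1 (-0.34) and UQCRFS1 (-0.29).

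The deviations of same-numbered libraries from their group means correlated at 0.111, -0.0338 and 0.116, and those of differently numbered libraries at -0.128 to 0.0581. With 3 libraries per group these values cannot decide whether the numbers mark pairs, and the main fit used no pairing. With the replicate number as a block, 12 members were higher and 1 was lower, with 8 past a fold change of 1.5. In that fit 12.9% of all tested genes were called in either direction. Calls of low members rest on few reads, 64 to 216 for NDUFV2.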

Other observations

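Enzymes of the tricarboxylic acid cycle, which feed electrons to complexes I and II, included several genes that were higher in LOC_OE. Of 14 tested enzymes other than the succinate dehydrogenase genes, 6 were higher and none was lower. The 42.9% past the threshold compare with 20.4% of all tested genes. The median log2 fold change was 0.41, or 0.27 without LOC_OE 1 and 0.18 at the same sum of FPKM. DLD, the shared dehydrogenase subunit of several oxidative complexes, had 25.7, 24.6 and 25.4 FPKM in Vector and 43.3, 44.6 and 41.6 FPKM in LOC_OE. CS, citrate synthase, had 48.7, 45.1 and 46.1 FPKM in Vector and 94.7, 67.6 and 71.8 FPKM in LOC_OE. FH, fumarase, had 44.6, 41.4 and 41.6 FPKM in Vector and 84.9, 62.6 and 59.4 FPKM in LOC_OE. SUCLA2, a succinyl-CoA ligase subunit, had 2.09, 2.31 and 2.56 FPKM in Vector and 5.80, 3.88 and 3.72 FPKM in LOC_OE. The groups did not overlap in any of these genes, and LOC_OE 1 was highest in CS, FH and SUCLA2 but not in DLD. IDH2 went the other way, with 25.3, 23.5 and 23.8 FPKM in Vector and 22.95, 16.8 and 15.4 FPKM in LOC_OE, again without overlap. Its log2 fold change was -0.40 (limma adjusted p = 0.106), and without LOC_OE 1 it was -0.56 (adjusted p = 0.00227). Whether the enzymes differed from the members was not tested.

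Of 16 regulators of mitochondrial biogenesis, 14 were tested, 5 were higher (TFAM, GABPB1, TFB2M, TWNK and PPARGC1B) and 1 (POLG) was lower. The 42.9% past the threshold compare with 20.4% of all tested genes. The median log2 fold change was 0.16, or 0.11 without LOC_OE 1 and -0.07 at the same sum of FPKM. Without LOC_OE 1, 6 were higher and 2 were lower, where 35.5% of all tested genes were called. POLRMT then passed at -0.48 (limma adjusted p = 0.0181), from -0.33 (adjusted p = 0.197) with all 6 libraries. TFAM, which packages and transcribes mitochondrial DNA, had 10.5, 10.9 and 11.6 FPKM in Vector and 21.8, 18.3 and 16.6 FPKM in LOC_OE, a log2 fold change of 0.72 (SE 0.11, limma adjusted p = 0.0117). GABPB1, a partner of the ETS factor GABPA, had 5.56, 5.01 and 5.59 FPKM in Vector and 9.43, 9.07 and 8.24 FPKM in LOC_OE, a log2 fold change of 0.63 (SE 0.09, limma adjusted p = 0.00851). NRF1, GABPA and YY1, the factors whose motifs were searched, had log2 fold changes of 0.17, 0.05 and 0.16, and none passed the test.

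Gene copies and overlapping genes limit some values. Of the members, 47 had pseudogenes named after them, 164 in all, of which 64 had reads, 15 were tested and none was called by limma. The reads of the copies came to over 1% of the reads of the parent gene for 9 members, among them NDUFV2 (16.6%), SDHA (12.2%) and COX6A1 (11.4%). Of the 100 members, 53 shared exon bases with another gene, 40 of them with a gene on the opposite strand and 27 with a gene on the same strand. A member can be in both counts.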
